A study of Homo sapiens with 12 samples.

Results

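Histone acetylation at 7 interferon regulatory factor (IRF) genes was described: IRF2, IRF3, IRF4, IRF5, IRF7, IRF8 and IRF9. They were chosen by name, and every peak of acetylated histone H3 lysine 27 (H3K27ac) in the gene body or within 5 kb of either end was taken (GRCh38, RefSeq gene positions). The 7 windows held 220 of 1019229 peaks over 12 libraries, and all 7 genes were among the 16284 of 19974 protein-coding genes that had a peak in at least 2 libraries and were tested. The study mapped H3K27ac, a mark of active promoters and enhancers, by chromatin immunoprecipitation and sequencing in 2 human pancreatic ductal adenocarcinoma lines, CFPAC1 and MiaPaCa2.

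The 6 groups held 2 libraries each (n = 2 throughout). Bulk CFPAC1 and bulk MiaPaCa2 were each profiled untreated and after 2 h with interferon beta (IFN-β) at 1000 U/ml. CFPAC1 was also profiled as clones: WT clones had been infected with the lentiCRISPRv2 plasmid, and IRF1KO clones with the same plasmid carrying wt Cas9 and a guide RNA against IRF1. Each clone library is 1 clone isolated by dilution, both kinds of clone carry the vector, and the labels name no IFN-β treatment for either. CFPAC1 was grown in IMDM and MiaPaCa2 in DMEM, so line and medium cannot be told apart. The labels do not say that 2 bulk libraries of a group are separate cultures, so the spread between them may be technical. Each p-value sets a change only against the spread between libraries of the same group, pooled over all 6 groups.

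IRFs are transcription factors with a shared DNA-binding domain that reads repeats of the letters GAAA. IRF3 and IRF7 are kept inactive in the cytoplasm until sensors of viral nucleic acid lead to their phosphorylation, and they then switch on interferon genes. Interferon binds its receptor, and the kinases JAK1 and TYK2 activate STAT proteins, which join IRF9 to form ISGF3, the complex that binds promoters of interferon-stimulated genes. IRF2 competes with IRF1 for the same sites and can repress them, IRF5 serves inflammatory signalling, and IRF4 and IRF8 are best known from lymphocytes and myeloid cells.

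RefSeq promoter windows (GRCh38.p14, 250 bases before to 50 bases after an annotated start, 300 bases each) were found for 4 of the 7 genes, namely IRF4, IRF5, IRF8 and IRF9. Those of IRF9 and the more upstream pair of IRF5 are printed because they are the windows on which peaks lay. They were searched on both strands for AANNGAAA, the core read by an IRF, for GAAANNGAAA, a pair of such cores, and for TTCNNNGAA, the STAT core. A match to GAAANNGAAA also holds AANNGAAA. Capitals mark a match to any of the 3 motifs.
IRF9 chr14:24161015-24161314 plus strand: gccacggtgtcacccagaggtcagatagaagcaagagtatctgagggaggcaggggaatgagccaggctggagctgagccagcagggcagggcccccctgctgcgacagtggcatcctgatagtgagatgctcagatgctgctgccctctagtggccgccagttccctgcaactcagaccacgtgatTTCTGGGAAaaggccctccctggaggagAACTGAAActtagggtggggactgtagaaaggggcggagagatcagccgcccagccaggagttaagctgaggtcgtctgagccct
IRF5 window 1 chr7:128937677-128937976 plus strand: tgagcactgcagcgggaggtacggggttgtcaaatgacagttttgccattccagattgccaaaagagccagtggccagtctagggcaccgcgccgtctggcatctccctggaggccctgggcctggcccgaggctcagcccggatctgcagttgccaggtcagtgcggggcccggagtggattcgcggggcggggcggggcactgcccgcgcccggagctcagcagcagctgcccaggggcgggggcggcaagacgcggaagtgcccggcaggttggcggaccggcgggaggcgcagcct
IRF5 window 2 chr7:128937967-128938266 plus strand: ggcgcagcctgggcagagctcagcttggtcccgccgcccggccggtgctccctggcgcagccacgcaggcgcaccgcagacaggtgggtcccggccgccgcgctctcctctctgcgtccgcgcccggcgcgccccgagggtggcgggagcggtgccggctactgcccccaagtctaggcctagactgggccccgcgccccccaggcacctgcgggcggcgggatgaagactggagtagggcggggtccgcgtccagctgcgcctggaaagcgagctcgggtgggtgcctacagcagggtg

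The IRF9 window held 1 AANNGAAA at bases 216 to 223 and 1 TTCNNNGAA at bases 188 to 196, counted from the first printed base. Neither printed window of IRF5 held any of the 3 motifs. Among the windows not printed, AANNGAAA was also matched in both IRF8 windows and in the IRF5 window chr7:128940420-128940719. Of 35116 human promoter windows of this length, 22.8% held AANNGAAA, 3.57% GAAANNGAAA and 7.66% TTCNNNGAA, so the first of these is a common match. Peaks lay on the IRF9 window in 12 of 12 libraries. They covered all 300 bases in both IFN-β libraries of each line, and 300 and 189 bases in untreated CFPAC1 and 194 and 190 bases in untreated MiaPaCa2. IRF5 window 1 lay partly under a peak in the 4 MiaPaCa2 libraries (165 to 283 bases) and in 0 CFPAC1 libraries. IRF5 window 2 lay partly under a peak in 7 libraries, the 4 of MiaPaCa2 and 3 of the clones. The window of IRF4, the other IRF5 windows and both IRF8 windows, which belong to starts inside the gene, lay under no peak in any library.

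The 7 genes fell into 2 sets by how often they were covered. IRF2, IRF3, IRF7 and IRF9 held peaks in all 12 libraries, while IRF8 held them in 8, IRF5 in 7 and IRF4 in 2. As a share of the window length, so that genes of different size can be compared, the mean over libraries was 24.4% at IRF3, 22.8% at IRF9, 16.0% at IRF7, 9.45% at IRF2, 1.69% at IRF5, 1.01% at IRF8 and 0.259% at IRF4. The lists held 59896 to 109861 peaks covering 63.6 to 94.8 Mb per library, and the read depth is unknown. Covered bp measures how far peaks extend and not how high the signal is. The fold of a peak is the authors' own value for its summit over the background of that library, and it is used only to describe.

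**Figure D1:**
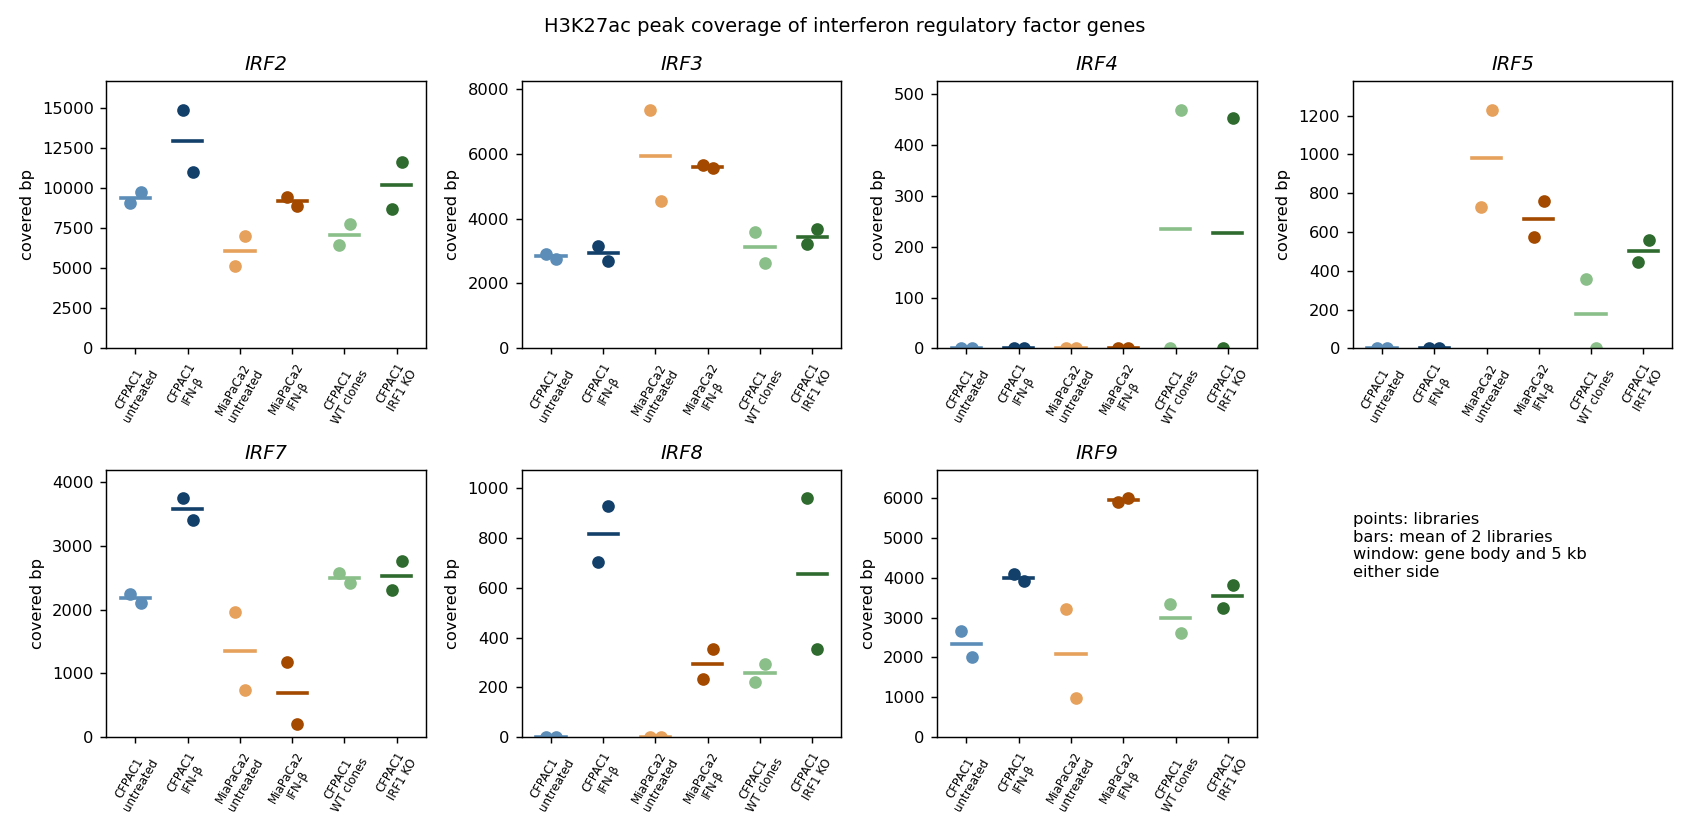
Covered bp in the gene body and 5 kb either side (y axis, linear, a different range for each gene) for the 7 genes in 6 groups; points are libraries and bars are means of 2. IRF9 is highest in both treated MiaPaCa2 libraries (5900 and 5996 bp), IRF7 in both treated CFPAC1 libraries (3750 and 3417 bp), and IRF5 is at 0 in bulk CFPAC1.

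In CFPAC1 after 2 h of IFN-β, IRF8 was the member that passed the test, and IRF2, IRF7 and IRF9 had more covered bp in both treated libraries than in both untreated ones. That is 4 of 7 members with both treated libraries above both untreated ones and 0 below, where 9.65% of all tested genes were above and 42.2% below. By the limma test over all tested genes with Benjamini-Hochberg adjustment, 1 of 7 members was called (1.01% of all tested genes were called, 127 higher and 38 lower). At an unadjusted p under 0.05 there were 3 members, IRF2, IRF8 and IRF9, and 1855 of the 16284 tested genes in all. The median fitted log2 change was 0.59 over the members, with IRF4 and IRF5 entered without a peak, and 0.02 over all tested genes. Without centring on the library mean the latter was −0.14 and the calls were 66 higher and 59 lower. An exact permutation test of 2 libraries against 2 cannot go below a two-sided p of 0.333, so no such test is given for single members.

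IRF9 encodes the DNA-binding subunit of ISGF3 (chr14:24161265-24166565). It had 2668 and 2003 bp under peaks in untreated CFPAC1 and 4099 and 3919 bp after IFN-β. Both treated libraries lay above both untreated ones. The fitted log2 change in covered bp was 0.84 ± 0.33 (SE), which did not pass (limma adjusted p = 0.339). All of this coverage lay in 1 locus, chr14:24159313-24163617, which spans the low-coordinate end of the gene and the promoter window printed above. The locus also overlaps the neighbouring gene RNF31 (chr14:24146875-24160655), so its cover cannot be assigned to IRF9 alone. Its strongest fold was 12.4 and 15.1 untreated, above 85.2% and 93.8% of the peaks in those lists. Treated it was 25.0 and 16.7, above 96.8% and 95.3%.

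IRF7, which amplifies interferon production (chr11:612555-615950), had 2249 and 2114 bp without and 3750 and 3417 bp with IFN-β. The 2 groups did not overlap. The fitted log2 change was 0.77 ± 0.42 (limma adjusted p = 0.583), with an SE that pools the spread of all 6 groups. Fitted with only the libraries of this comparison it was 0.77 ± 0.12 (adjusted p = 0.112). With peaks of −log10 q of at least 5 it was 0.70 ± 0.17 (adjusted p = 0.0938). Neither passed. The fold of its strongest peak was 11.4 and 10.5 untreated, above 82.8% and 83.4% of the peaks in those lists. In the treated libraries it was 45.9 and 27.2, above 99.8% and 99.6% of their lists. This peak lies in the locus chr11:613782-616862 at the high-coordinate end, which had 2249 and 2114 bp of cover untreated and 3033 and 3051 bp treated. The locus reaches into the neighbouring gene CDHR5 (chr11:616583-624955), so its cover cannot be assigned to IRF7 alone. A further locus inside the gene, chr11:612881-613597, held a peak in both treated libraries (717 and 366 bp) and in neither untreated one.

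IRF8 (chr16:85899162-85922609) had no peak in either untreated CFPAC1 library and 705 and 929 bp in the treated ones. The fitted log2 change of 1.55 ± 0.28 passed the threshold (limma adjusted p = 0.0399). Both untreated libraries were at 0 and add almost no spread to the pooled error of this gene. The call was lost without any 1 of the 4 libraries (adjusted p 0.179 to 0.234) and under 6 of the 8 other settings, including peaks of −log10 q of at least 5 (adjusted p = 0.109) and the same number of peaks per library (adjusted p = 0.115). Treated cells held 2 short loci: chr16:85898509-85899052 just outside the low-coordinate end (322 and 544 bp) and chr16:85916124-85916587 inside the gene (383 and 385 bp). Their strongest folds were 5.93 and 6.01, above 54.8% and 60.4% of the peaks in those lists, so these are not strong peaks.

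IRF2 (chr4:184387729-184474550), the longest gene of the 7, had 9067 and 9749 bp without and 14915 and 10996 bp with IFN-β. Both treated libraries were above both untreated ones, the first of them by far. The fitted log2 change was 0.59 ± 0.23 (limma adjusted p = 0.348). Most of the added cover lay inside the gene. The locus chr4:184415785-184418756 had 1085 and 1069 bp without and 2768 and 2739 bp with IFN-β, with folds of 8.11 and 6.86 and of 21.6 and 17.3. At chr4:184399162-184400553 both treated libraries held a peak (1373 and 707 bp, folds 12.3 and 14.3) and neither untreated library did. By contrast the locus at the high-coordinate end, chr4:184473666-184476817, which overlaps the lncRNA IRF2-DT (chr4:184474802-184477304) so that its cover and fold cannot be assigned to IRF2 alone, kept nearly the same width (2388 and 2591 bp untreated, 2815 and 2538 bp treated), while its fold was 17.3 and 16.4 untreated and 35.5 and 28.1 treated.

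IRF3, the sensor-activated factor (chr19:49659572-49665857), had 2915 and 2752 bp without and 3168 and 2702 bp with IFN-β, and the groups overlapped. Its fitted log2 change was 0.20 ± 0.19 (limma adjusted p = 0.823), and its strongest fold was 12.4 and 12.3 untreated and 10.6 and 11.2 treated. IRF4 and IRF5 had no peak in any of the 4 libraries, so no change is given for them. Counted by locus, 4 of the 16 member loci were gained in treated CFPAC1 (a peak in both treated libraries and in neither untreated one), 2 at IRF8 and 1 each at IRF2 and IRF7, and 0 were lost. Over all loci 2.77% were gained and 6.43% lost.

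**Figure D2:**
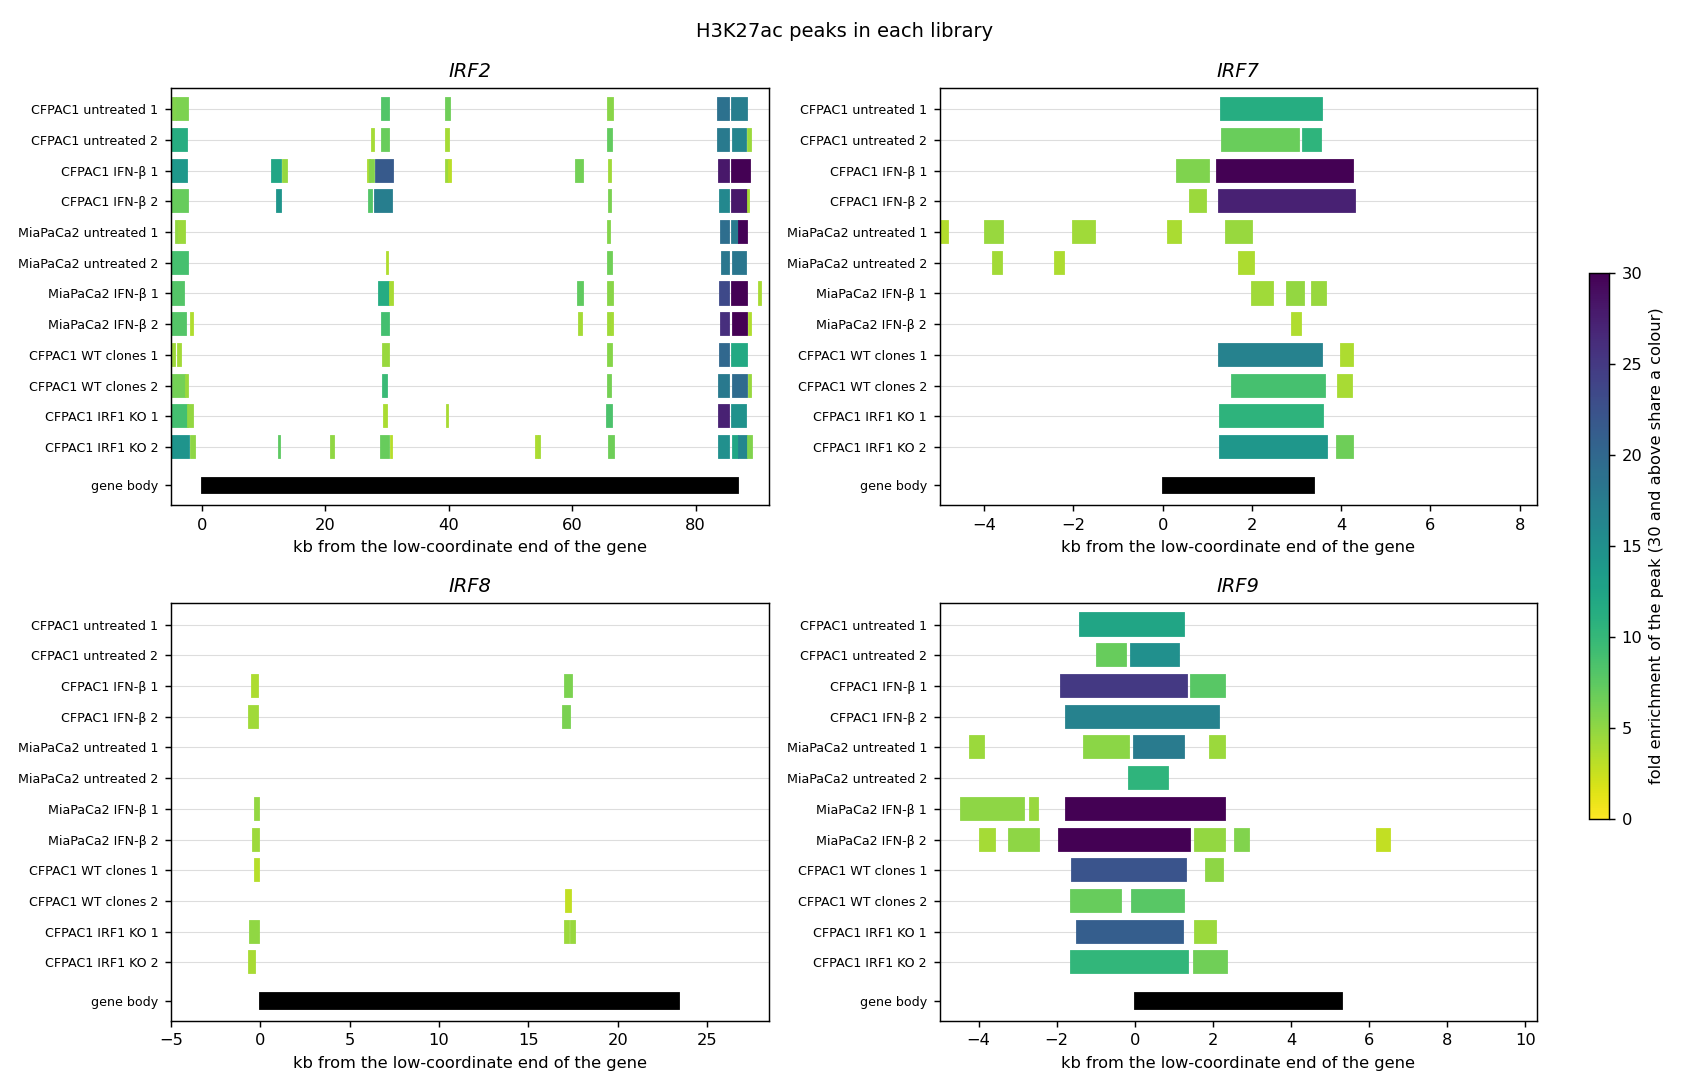
Peaks of each library drawn to scale over IRF2, IRF7, IRF8 and IRF9 (x axis, kb from the low-coordinate end of the gene; colour, the authors' fold per peak, with 30 and above in 1 colour; black bar, gene body). The IRF8 peaks are absent from untreated bulk cells of both lines, and the darkest IRF7 peaks are those of treated CFPAC1.

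The same treatment was given to MiaPaCa2, which asks whether the other line shows the same regions. IRF9, IRF2 and IRF8 had more covered bp in both treated libraries than in both untreated ones, and IRF7 did not. No member was called by limma, 0 of 7, where 0.645% of all tested genes were called (95 higher and 10 lower). Both treated libraries lay above both untreated ones at 3 of 7 members and below at 0, against 8.82% and 20.7% of all tested genes. The median fitted log2 change was 0.10 over the members and 0.03 over all tested genes, and without centring the latter was −0.07. That member median is the value of IRF4, which had no peak in either group, so it reflects the centring only. At an unadjusted p under 0.05 there were 3 members, IRF2, IRF8 and IRF9, and 1245 genes in all.

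IRF9 in MiaPaCa2 had 3206 and 979 bp without and 5900 and 5996 bp with IFN-β. The treated libraries were close together and above both untreated ones, which were far apart. The fitted log2 change was 1.56 ± 0.33 (limma adjusted p = 0.0932). Leaving out 1 library at a time gave 0.94 to 2.18: it passed without untreated replicate 1 (2.18, adjusted p = 0.0129), and without untreated replicate 2 it was 0.94 (adjusted p = 0.0559). The strongest fold was 17.6 and 10.5 untreated, above 87.4% and 78.4% of the peaks in those lists. Treated it was 43.4 and 38.5, above 97.7% and 97.4%. A second, weaker locus at chr14:24156813-24158809 held 353 and 0 bp without and 1823 and 1138 bp with IFN-β. This locus lies inside the neighbouring gene RNF31 and counts in the totals above, so they cannot be assigned to IRF9 alone. It was seen in 3 MiaPaCa2 libraries and in 0 of the 8 CFPAC1 libraries.

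IRF8 was at 0 in both untreated MiaPaCa2 libraries and had 233 and 352 bp in the treated ones. The fitted log2 change was 0.76 ± 0.28 (limma adjusted p = 0.466). The treated libraries held the locus at the low-coordinate end only, chr16:85898758-85899109, with folds of 4.83 and 4.40. These were above 38.0% and 43.6% of the peaks in those lists, so they are weak peaks. The locus inside IRF8 that treated CFPAC1 held was without a peak in all 4 MiaPaCa2 libraries.

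IRF2 had 5128 and 7000 bp in untreated MiaPaCa2 and 9452 and 8911 bp in treated MiaPaCa2 (log2 change 0.68 ± 0.23, limma adjusted p = 0.412). Again most of the added cover lay inside the gene. The locus chr4:184415785-184418756 had 0 and 200 bp without and 1992 and 1078 bp with IFN-β. A locus at chr4:184448675-184449455 was gained, and over the 12 libraries the peaks there belonged to both treated MiaPaCa2 libraries and 1 treated CFPAC1 library. The peak at the IRF2-DT end had a fold of 29.8 and 18.2 untreated, above 95.4% and 89.9% of the peaks in those lists. Treated it was 49.0 and 42.9, above 98.7% and 98.5% of the peaks in the treated lists.

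IRF7 in MiaPaCa2 had 1967 and 748 bp without and 1176 and 200 bp with IFN-β, and the groups overlapped (log2 change −0.59 ± 0.42, limma adjusted p = 0.933). The fold of its strongest peak in each library was 3.53 to 4.81 over the 4 libraries. Leaving out treated replicate 2 turned the direction (0.14), as did peaks of −log10 q of at least 5 (0.06). IRF3 had 7353 and 4529 bp without and 5644 and 5547 bp with IFN-β (0.06 ± 0.19, adjusted p = 0.977; −0.04 without centring), and IRF5 had 731 and 1230 bp without and 574 and 758 bp with IFN-β (−0.23 ± 0.26, adjusted p = 0.977). Both pairs of groups overlapped. IRF4 had no peak. Of 34 member loci 3 were gained, 1 each at IRF2, IRF7 and IRF8. A further 2 were lost, both in the IRF7 window but inside the neighbouring gene PHRF1. Over all loci 2.3% were gained and 3.29% lost.

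The difference between the lines in the response was tested as an interaction. For IRF7 the fitted MiaPaCa2 minus CFPAC1 difference was −1.36 ± 0.59 (unadjusted p = 0.0463, limma adjusted p = 0.661). For IRF8 it was −0.79 ± 0.39 (adjusted p = 0.749) and for IRF9 0.72 ± 0.46 (adjusted p = 0.845). Leaving out 1 library at a time gave −2.10 to −0.63 at IRF7 (−0.63 without treated MiaPaCa2 replicate 2) and 0.10 to 1.34 at IRF9 (0.10 without untreated MiaPaCa2 replicate 2). None of the 7 was called, and 0.0614% of all tested genes were called (5 in each direction, with 1198 at an unadjusted p under 0.05), so a difference between the lines in the response of these genes was not shown. Both responses rest on 2 untreated libraries each, and both untreated pairs also serve the comparison of the untreated lines.

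**Figure D3:**
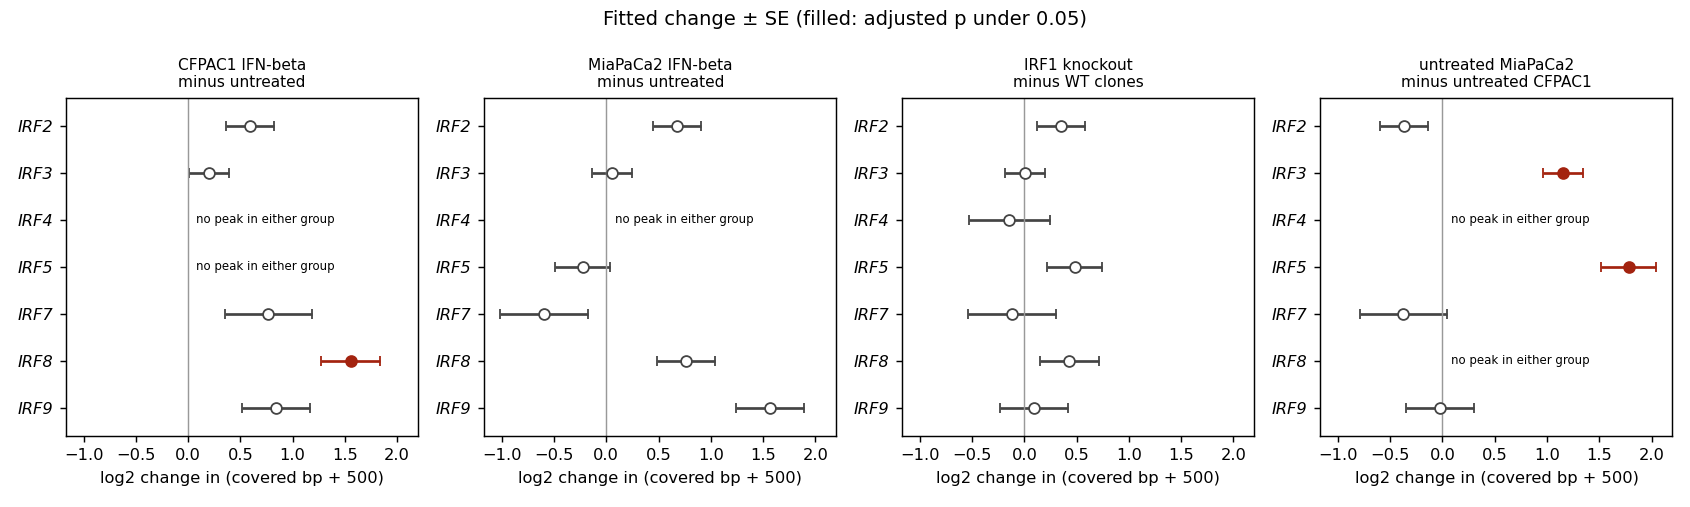
Fitted log2 change in covered bp plus 500 bp, relative to the library mean, with its SE for the 7 genes in 4 comparisons; filled points have a limma adjusted p under 0.05. IRF8 passes in CFPAC1 (1.55), IRF3 and IRF5 pass between the untreated lines (1.15 and 1.78), and genes without a peak in either group are marked as such.

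Untreated MiaPaCa2 differed from untreated CFPAC1 at IRF3 and IRF5, both with more covered bp in MiaPaCa2. These were 2 of 7 members called, against 58.6% of all tested genes, so most genes differed between the lines (5872 higher and 3664 lower, or 3493 and 4280 without centring, when the median over all tested genes went from 0.25 to 0.02). At 2 members both MiaPaCa2 libraries were above both CFPAC1 ones (38.5% of all tested genes) and at 2, IRF2 and IRF7, below (36.5%). IRF5 had 0 and 0 bp in untreated CFPAC1 and 731 and 1230 bp in untreated MiaPaCa2 (fitted log2 change 1.78 ± 0.26, limma adjusted p = 3.73e-04). Its peaks lay in the locus pair chr7:128937320-128937959 and chr7:128938063-128938452, which overlaps the printed promoter windows in part and reaches beyond them at either side. A further 200 bp peak of replicate 2, chr7:128938536-128938735, lay wholly outside them. The strongest folds were 9.14 and 8.57, above 77.1% and 73.8% of the peaks in those lists. Bulk CFPAC1 had no IRF5 peak in any of its 4 libraries, treated or not.

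IRF3 had 2915 and 2752 bp in untreated CFPAC1 and 7353 and 4529 bp in untreated MiaPaCa2 (fitted log2 change 1.15 ± 0.19, limma adjusted p = 7.31e-04). The window also holds parts of SCAF1 and BCL2L12, so cover cannot be assigned to IRF3 alone. The locus chr19:49662878-49667808, which reaches from the inside of IRF3 over its high-coordinate end into BCL2L12, was present in all 12 libraries and had 4228 and 3720 bp in untreated MiaPaCa2 with folds of 39.0 and 27.2, against 12.4 and 12.3 in untreated CFPAC1. A further pair of loci, chr19:49655955-49657139 in SCAF1 and chr19:49662025-49662746 in IRF3, was gained. Over the 12 libraries both were found in the 4 MiaPaCa2 libraries alone. The calls of IRF3 and IRF5 were kept under each other setting and without any 1 library.

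IRF7 had less cover in untreated MiaPaCa2, 1967 and 748 bp against 2249 and 2114 bp, without a call (log2 change −0.37 ± 0.42, limma adjusted p = 0.464). Its main peak differed more than its total: at chr11:613782-616862 MiaPaCa2 had 577 and 331 bp with folds of 4.67 and 3.74, and CFPAC1 had 2249 and 2114 bp with folds of 11.4 and 10.5. With peaks of −log10 q of at least 5 the log2 change was −2.15 (adjusted p = 1.105e-05). The rest of the MiaPaCa2 cover lay in part at chr11:607224-607737 and chr11:608579-608988, within PHRF1. IRF2 (−0.37 ± 0.23, adjusted p = 0.192; without centring −0.61 and a pass, adjusted p = 0.0367) and IRF9 (−0.03 ± 0.33, adjusted p = 0.946) did not pass. IRF9 depended on 1 library: without MiaPaCa2 untreated replicate 1 its change was −0.64 and passed (adjusted p = 0.0259), and without replicate 2 it was 0.59. IRF8 and IRF4 had no peak in these 4 libraries. Of 28 member loci 6 were gained in MiaPaCa2 (2 each at IRF3, IRF5 and IRF7) and 1 was lost (IRF2), against 10.3% gained and 21% lost over all loci.

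Markers of cell type were also compared between the untreated lines. There 58.6% of all tested genes were called, so nothing is read from the marker counts. CDH1 and EPCAM, which encode epithelial adhesion proteins, had no peak in MiaPaCa2, and the summed cover of 7 ductal epithelial markers was 62947 to 69812 bp in untreated MiaPaCa2 and 110095 to 110510 bp in untreated CFPAC1. Of those 7 markers 0 were called higher and 3 lower by limma (CDH1, EPCAM and KRT7), and 4 of 7 had a positive fitted change, with a median of 0.18 against 0.25 over all tested genes. Of 5 mesenchymal markers 1 was called higher in MiaPaCa2, VIM (log2 change 1.95 ± 0.12, limma adjusted p = 1.24e-06), and 4 lower, namely ZEB1 and the 3 without a peak there, CDH2, FN1 and ZEB2. The median of the 5 was −0.995, and their summed cover was 16787 to 18091 bp in MiaPaCa2 and 20517 to 38394 bp in CFPAC1. Of 12 blood cell markers 8 had a peak in each untreated line, with summed cover of 17877 to 21627 bp in CFPAC1 and 10436 to 16238 bp in MiaPaCa2. The B cell marker MS4A1 was at 0 in both lines, CD4 and SPI1 were at 0 in CFPAC1, and CD3E, CSF1R and PTPRC were at 0 in MiaPaCa2. The part of any of these in the IRF5 and IRF3 differences was not tested.

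The clones asked what the loss of IRF1 does to H3K27ac in CFPAC1. No member was called, 0 of 7, where 1.24% of all tested genes were called (105 higher and 97 lower, or 97 and 28 without centring, when the median over all tested genes went from −0.05 to 0.08). At an unadjusted p under 0.05 there were 0 members and 2378 genes in all. At IRF2, IRF5 and IRF8 both IRF1KO clones had more covered bp than both WT clones, 3 of 7 members above against 26.2% of all tested genes, and 0 of 7 below against 12.3%. IRF1 itself had 5485 and 6341 bp in WT clones and 8271 and 14027 bp in IRF1KO clones (log2 change 0.69 ± 0.27, limma adjusted p = 0.279). A cut by Cas9 leaves the gene in place, so H3K27ac cover checks nothing about the loss of the protein.

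IRF2 had 6444 and 7781 bp in WT clones and 8734 and 11661 bp in IRF1KO clones (fitted log2 change 0.35 ± 0.23, limma adjusted p = 0.539). IRF8 had 222 and 292 bp in WT clones and 959 and 354 bp in IRF1KO clones (0.43 ± 0.28, adjusted p = 0.534), and IRF5 had 358 and 0 bp and 447 and 561 bp (0.48 ± 0.26, adjusted p = 0.452). At IRF8 and IRF2 the higher IRF1KO clone stood well apart from the other one. Leaving out 1 clone at a time, the log2 change was 0.14 to 0.57 at IRF2, 0.18 to 0.79 at IRF5 and 0.018 to 0.85 at IRF8, where 0.018 was without IRF1KO clone 1. That clone's list held 80926 peaks with a smallest −log10 q of 1.37, against 109861 peaks for IRF1KO clone 2. The options of the peak calling are not given in the sources used here, and their part in these values was not tested. IRF9 had 3355 and 2607 bp in WT clones and 3248 and 3830 bp in IRF1KO clones, IRF3 had 3589 and 2631 bp and 3205 and 3669 bp, and IRF7 had 2578 and 2418 bp and 2313 and 2762 bp. These 3 genes overlapped between the groups, with log2 changes of 0.09, 0.00 and −0.12 (limma adjusted p 0.920 to 0.994), of which the last was 0.02 without centring.

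IRF4, at 0 in all 8 bulk libraries, had 470 bp in WT clone 2 and 453 bp in IRF1KO clone 2 and was at 0 in the other clones. Its folds there were 4.56 and 4.13, above 33.1% and 31.5% of the peaks in those lists. The locus of IRF8 at the low-coordinate end was absent from the 4 untreated bulk libraries. It held a peak in WT clone 1 and in both IRF1KO clones, with folds of 3.31 to 4.93. The locus inside IRF8 held one in WT clone 2 (292 bp, fold 2.8) and in IRF1KO clone 1 (440 bp, fold 4.62). At IRF2, chr4:184399162-184400553 held one in IRF1KO clone 2 (310 bp, fold 7.43). The IRF7 locus gained in treated CFPAC1 held none in any clone. No IFN-β is named for the clones. None of the 25 member loci was gained or lost between the clones (0 of each), where 3.36% of all loci were gained and 2.62% lost. The summed cover of the 7 ductal epithelial markers was 102222 to 105264 bp in WT clones and 77681 to 94255 bp in IRF1KO clones. By limma 0 of 7 were called, and 3 had an unadjusted p under 0.05, as did 2378 of all 16284 tested genes. The median log2 change of these markers was −0.43 against −0.05 over all tested genes. Of 5 mesenchymal markers 1 was called lower, ZEB1 (−1.03 ± 0.17, limma adjusted p = 0.0325), and 0 higher, while 4 of the 5 had a positive fitted change (median 0.65) and their summed cover was 25371 to 30476 bp in WT clones and 30540 to 35079 bp in IRF1KO clones. The part of these markers in the values of the members was not tested.

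**Figure D4:**
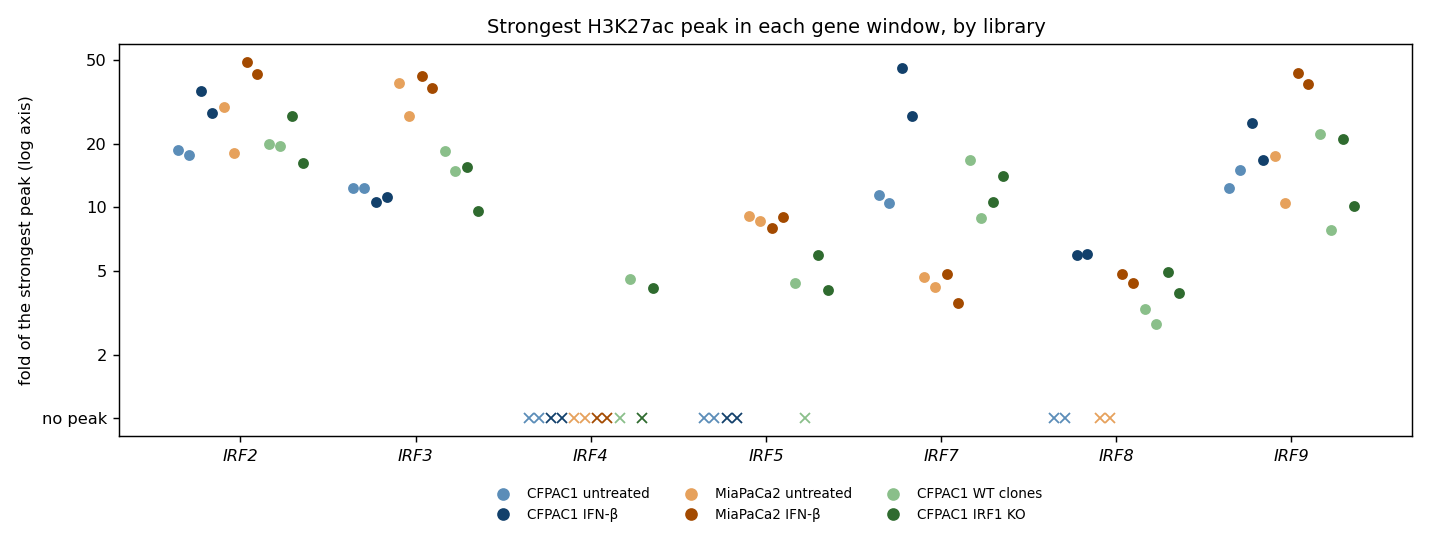
The authors' fold of the strongest peak in each gene window (y axis, log scale) in every library, coloured by group; crosses mark libraries without a peak. IRF7 spans 3.53 to 45.9, with the 2 highest values in treated CFPAC1, while IRF4, IRF5 and IRF8 stay under 10.

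Other genes of the pathway were taken from lists by role. Of 20 genes that ISGF3 binds, 10 rose in treated CFPAC1 and 0 fell (median log2 change 1.20 over the list and 0.02 over all tested genes). RSAD2, an antiviral enzyme, rose by 3.15 ± 0.34 and CXCL10, a chemokine, by 3.12 ± 0.30 (limma adjusted p = 0.00757 and 0.00469). In MiaPaCa2 8 of 20 rose and 0 fell (median 0.93, against 0.03), among them OAS1, an activator of RNA decay, by 3.49 ± 0.32 and MX1, an antiviral GTPase, by 2.86 ± 0.21 (limma adjusted p = 0.00208 and 0.00109). In the clones 0 of 20 were called by limma, and 0 had an unadjusted p under 0.05. In untreated MiaPaCa2 against untreated CFPAC1, 2 of these genes were higher and 10 lower. Over all tested genes, 1.01% were called in treated CFPAC1, 0.645% in treated MiaPaCa2 and 58.6% between the untreated lines.

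Upstream of the IRFs, 0 of 9 receptor and JAK genes and 0 of 12 activators of IRF3 and IRF7 were called in treated CFPAC1 by limma (2 and 4 at an unadjusted p under 0.05). In treated MiaPaCa2, 0 of the 9 were called (2 at an unadjusted p under 0.05) and 2 of the 12 rose, namely IFIH1, a sensor of viral RNA, by 2.53 ± 0.25 and RIGI, another one, by 1.41 ± 0.15 (limma adjusted p = 0.00271 and 0.00360). Of 7 STAT genes 0 were called by limma in CFPAC1 (2 at an unadjusted p under 0.05). Of 6 feedback inhibitors SOCS1 rose in CFPAC1 (2.08 ± 0.32, adjusted p = 0.0233), USP18 rose in MiaPaCa2 (1.17 ± 0.20, adjusted p = 0.0335), and PIAS1 was lower in IRF1KO clones (−0.87 ± 0.17, adjusted p = 0.0475). Of 6 interferon genes 3 were tested. IFNL1, a lambda interferon, had no peak in untreated CFPAC1 and rose to 1034 and 746 bp after treatment (1.63 ± 0.28, adjusted p = 0.0331), while IFNB1, the gene of the applied interferon, had no peak in any of the 12 libraries. The 3 corepressor genes of IRF2 gave 0 calls in either treatment and in the clones, and 0 at an unadjusted p under 0.05.

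Between the untreated lines, where 58.6% of all tested genes were called, nothing is read from the counts of these lists. STAT3 (2.55 ± 0.20, limma adjusted p = 6.03e-06) and STAT5A were higher in MiaPaCa2, and STAT4 was lower (−2.63 ± 0.23, adjusted p = 1.37e-05). Of 9 receptor and JAK genes 0 were higher and 2 lower, IFNLR1, the lambda interferon receptor (−2.37 ± 0.47, adjusted p = 0.00210), and JAK1 (−1.43 ± 0.27, adjusted p = 0.00170). Of the 12 activators 4 were higher and 5 lower, IFIH1 (−1.55 ± 0.25, adjusted p = 6.44e-04) and STING1, which relays the sensing of DNA (−1.20 ± 0.24, adjusted p = 0.00234), among the latter.

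The genes whose cover over the 12 libraries was most like that of each member were found by Pearson's r of the centred log2 values, as a description that carries the groups and the list sizes of the libraries within it. For IRF9 they were BST2, an interferon-stimulated gene of the list above (r = 0.893), RHBDF2 (0.892) and SCO2 (0.883). For IRF7 they were KAT2B (0.902), MREG (0.902) and CABP1 (0.883), for IRF2 CYP4V2 (0.920), LIMD1 (0.890) and OGFOD3 (0.877), and for IRF8 NDST3 (0.867), RBM45 (0.856) and LEF1 (0.836). IRF3 was matched by CCDC106 and SMIM46 (0.987 each) and PODNL1 (0.984), and IRF5 by SLC22A17 and EFS (0.986 each, genes that share a window) and INKA2 (0.984), which follow the difference between the lines. IRF4 was matched by DNAJB13 (0.995), RNASE8 (0.989) and RTP2 (0.981). With peaks at IRF4 in 2 libraries only, that likeness rests on those 2.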

How the data were processed

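Per the submitters' processing notes, the tools were Trimmomatic 0.38, Bowtie2 2.2.6 on GRCh38, SAMtools, and MACS2 2.1.0.20150731 for peaks. The authors deposited 1 narrowPeak list per library, so replicates were not pooled. A fold ratio stands beside each deposited peak, with a −log10 p and a −log10 q made by the authors (smallest −log10 q 1.37 in IRF1KO clone 1 and 1.30 to 1.32 in the other libraries), and a deposited score that was not used. Control library, read filters and depth are not given in the sources used here, so intervals that need read counts were not computed. The labels name 2 sequencers without assigning libraries.

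Peaks on the autosomes 1 to 22 and on X entered (0 to 55 left out per library). Covered bp of each gene body with 5 kb either side was increased by 500 bp, taken to log2 and centred within each library. limma 3.58.1 (R 4.3.3) fitted 1 model for the 6 groups with a trended prior, 6 residual degrees of freedom, Benjamini-Hochberg adjustment, calls under 0.05. Such fold changes understate low genes. The gene table gives no strand, so ends are named by coordinate, and windows can hold neighbouring genes. For loci, the peaks of the 4 libraries of a comparison were merged; gained or lost means both libraries of 1 group and neither of the other, by at least 1 bp. Locus counts and motif matches used Python 3.11.15 with pandas 2.3.3.

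Named genes are all members, IRF1, up to 4 called genes per list and comparison with the largest change, and the 3 most similar genes per member over 1 Mb away or on another chromosome. Members and lists were chosen with earlier results of these data known. Some genes that this rule names are not reported here. Alternatives changed the window, pseudocount, centring, peak threshold, number of peaks, filter, replicate block, libraries fitted and each library in turn. Replicate numbers recur between groups, but nothing in the labels says that they mark shared cultures.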

Additional observations from a re-analysis of the deposited data

How the results depend on the processing

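Of 375 values of single members under other settings, 334 kept their direction and their side of the threshold, 27 changed direction, 10 lost a call and 4 gained one. All 10 losses were of IRF8 in CFPAC1, and the 27 changes of direction were of values without a call. The number of members called in CFPAC1 went from 1 to 0 with the window at the larger gene end, without centring, with peaks of −log10 q of at least 5, with equal numbers of peaks, with only the libraries of the comparison and with a replicate block.

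With only the libraries of the comparison, calls over all genes fell from 165 to 0 in CFPAC1, from 105 to 17 in MiaPaCa2 and from 202 to 0 in the clones. Calls in the clones were 125 without centring. Calls of the difference between the lines in the response, 10 as reported, were 20 with a pseudocount of 100 bp and 36 without the filter. Limits of depth could not be set, since it is unknown.

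Groups share replicate numbers, but with 2 pairs each the numbers do not establish a pairing. The correlation of same-numbered deviations was 0.247 in CFPAC1, −0.0606 in MiaPaCa2, −0.105 in the clones and 0.222 between the untreated lines. With a replicate block, calls were 0 in CFPAC1, 68 in MiaPaCa2, 0 in the clones and 0 for the difference in response, and the IRF8 call in CFPAC1 was lost (adjusted p = 0.137). A crossed replicate block in the clones, added after seeing the data, gave 69 calls over all genes and 0 of members.

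Changes of direction were as follows. With the window at the larger gene end, the log2 change was −0.046 at IRF2 in the clones and 0.038 at IRF3 for the difference in response. With a pseudocount of 100 bp it was −0.054 at IRF3 in the clones and 0.032 at IRF9 between the lines. Without centring it was −0.044 at IRF3 in MiaPaCa2 and 0.015 at IRF7 in the clones. With peaks of −log10 q of at least 5 it was 0.057 at IRF7 in MiaPaCa2, −0.073 at IRF3 and 0.052 at IRF7 in the clones, and −0.15 at IRF2 for the difference in response. With equal numbers of peaks it was −0.12 at IRF3 and 0.10 at IRF7 in the clones and 0.028 at IRF3 for the difference in response. The cause of these changes was not tested.

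Leaving out 1 library at a time gave 0 to 58 calls in CFPAC1 with 0 members, 17 to 277 in MiaPaCa2 with 0 to 1 member, 46 to 886 in the clones and 2 to 14 for the difference in response. A group left with 1 library is then assumed to vary like the others. Log2 changes ranged in MiaPaCa2 from −0.22 to 0.34 at IRF3, −0.52 to 0.061 at IRF5 and −1.33 to 0.14 at IRF7. In the clones they ranged from −0.10 to 0.11 at IRF3 and −0.71 to 0.30 at IRF4. Between the lines they ranged from −0.82 to 0.077 at IRF7 and −0.64 to 0.59 at IRF9. For the difference in response they ranged from −0.16 to 0.34 at IRF2 and −0.42 to 0.13 at IRF3.

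Locus counts also moved. When a peak had to cover 50% of the locus, 5 were gained and 0 lost in MiaPaCa2, 1 was gained in the clones, and 2 were gained and 3 lost between the lines. With peaks of −log10 q of at least 5, 0 were lost in MiaPaCa2, and 3 were gained and 2 lost between the lines. With equal numbers of peaks, 1 was lost in MiaPaCa2. Without 1 library, which by construction asks for fewer libraries, gained and lost loci were 4 to 8 and 0 to 1 in CFPAC1, 4 to 8 and 2 to 8 in MiaPaCa2, 0 to 9 and 0 to 1 in the clones, and 6 to 15 and 1 to 4 between the lines.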
